A study of Mus musculus with 6 samples.

Results

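Glutathione is the main small-molecule thiol of the liver, and the genes that make it, use it and answer to the transcription factor NRF2 form the cell's chemical defence against reactive molecules. A list of 40 mouse genes of this kind was followed through a fatty liver experiment. It held 17 glutathione transferases, 4 genes of glutathione synthesis and reduction, NRF2 (Nfe2l2), its inhibitor Keap1 and 6 other NRF2 target enzymes. It also held 4 genes of the pentose phosphate pathway, a source of NADPH, and 7 enzymes that remove peroxide or superoxide. The members were chosen by name and function, with earlier results of these data known. Their counts beside those of all genes are therefore descriptions and not independent support. Of the 40, 37 were represented by a probe set that the annotation assigns to a single gene, among 18194 genes so represented in the series. Prdx1 had only probe sets listed with several symbols, and G6pdx and Prdx6 had no probe set in the annotation used, so these 3 were not analysed here. All 37 gave a signal above a floor of 221.4 on at least 1 array, as did 13989 genes in all, and 35 did so on all 6 arrays; the exceptions were Gsta2 and Gsta4.

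The livers came from male C57BL6/J mice that entered the study at 6 to 8 weeks of age. A 2-month study had groups on chow, on a fast-food diet and on the same diet with canertinib mixed into it for the whole period at an estimated 80 mg/kg a day. In a 5-month study, mice received chow, the fast-food diet with injections of the vehicle PBS, or the fast-food diet with canertinib injected intraperitoneally at 80 mg/kg on 5 days a week during the last 5 weeks. The fast-food diet held 21% fat by weight (42% of its kcal), 34% sucrose and 0.2% cholesterol, and came with 18.9 g/L glucose and 23.1 g/L fructose in the drinking water. Canertinib is a kinase inhibitor that the labels describe as directed at the epidermal growth factor receptor (EGFR). It also inhibits other receptors of the ERBB family, so its effects are those of the drug and not of EGFR alone. Each of the 6 groups is 1 Affymetrix Mouse Genome 430 2.0 array carrying RNA pooled from 3 to 4 livers, so animals within a group cannot be compared and a difference between 2 arrays of a study has no replicate check. The labels mention the vehicle only for the 5-month fast-food group.

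NRF2 is held in the cytoplasm and marked for destruction by KEAP1. Reactive molecules modify KEAP1, NRF2 then builds up, enters the nucleus, pairs with small MAF proteins and binds antioxidant response elements near its target genes. Those targets include enzymes of glutathione synthesis, glutathione transferases that couple glutathione to reactive compounds, and enzymes that supply NADPH. In the liver several glutathione transferases also answer to other receptors that sense drugs and lipids, and the transferases are among the most abundant proteins of the hepatocyte.

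The core of the antioxidant response element reads TGACNNNGC. It was searched for on both strands in windows from 250 bases before to 50 bases after each transcription start in RefSeq (GRCm38.p6), for which 35 of the 40 genes had a window. Gsta4, Gstt2, Gclc, Gsr and Prdx6 had none. The core was present for 12 of the 35 genes (34.3%), against 3781 of all 27025 genes with a window (14.0%); counted by window the shares were 25.5% and 12.4%. The 13 matches included 1, in Prdx1, that overlaps the AP-1 motif TGACTCA. The stretches printed here belong to genes that differed in their signals: Gsta3 and Ugdh had their lowest signals with the drug, and Gclm and Txnrd1 differed by at most 0.26 between the drug and fast food on the probe sets used. Capitals mark the match (in reverse complement for Gclm, Txnrd1 and the lower Ugdh line, where the core lies on the opposite strand), each line runs 5′ to 3′ on the gene's strand, and the coordinates are those of the match in GRCm38.p6.
Gsta3, chr1:21240464-21240472, plus strand: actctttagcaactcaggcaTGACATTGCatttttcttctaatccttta
Ugdh, chr5:65435966-65435974, minus strand: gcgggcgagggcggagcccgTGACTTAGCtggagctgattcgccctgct
Ugdh, chr5:65435928-65435936, minus strand: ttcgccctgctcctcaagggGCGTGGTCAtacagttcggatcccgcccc
Gclm, chr3:122245423-122245431, plus strand: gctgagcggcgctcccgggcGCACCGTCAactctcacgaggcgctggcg
Txnrd1, chr10:82859114-82859122, plus strand: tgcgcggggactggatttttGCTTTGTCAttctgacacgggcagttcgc
In Gsta3 the match begins 121 bases before the start, in Ugdh 132 and 94 bases before it, in Gclm 134 and in Txnrd1 92 bases before it. A match is a run of letters and not a site of binding. Many known response elements lie farther from the start than these windows reach.

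The 6 arrays had been scaled to the same trimmed mean signal of 500, and each showed 84.3% to 86.6% of the measured genes at signals over the floor. The log2 ratio of the 3′ to the 5′ control probe sets of actin, a measure of RNA integrity, reached 1.19 and 1.12 with the drug, against 0.85 to 0.98 on the other arrays, while that of Gapdh ranged from -0.30 to -0.09 without following the treatments. Of 12 listed hepatocyte markers 11 were measured, none was at the floor on any array, and all 11 were higher with canertinib than with fast food alone at both times (median log2 differences 0.41 and 0.56). Their summed signal was 442472, 494210 and 655286 with chow, fast food and canertinib at 2 months and 487396, 369850 and 531750 at 5 months. The markers were read under this scaling only. Mgst1, a listed gene about as bright as several of them, turned from 0.30 to -0.16 with the drug at 5 months after quantile normalization. Neutrophil markers, 8 of 10 measured, summed to 16270 and 17258 on the drug arrays and to between 3222 and 3951 on the other 4. Kupffer cell markers summed to 38358 to 49227 on the 4 fast-food arrays and to 20584 and 21080 on the chow arrays. Stellate cell markers, all 8 measured, summed to 10287, 17826 and 17085 with chow, fast food and canertinib at 2 months and to 8669, 25588 and 13148 at 5 months, where all 8 were lower with the drug. At 2 months only Dcn was higher with the drug than with fast food, by 0.31. There 2 were at the floor on both arrays and the rest were lower, Col3a1 most at -2.00. Recruited macrophage markers, 6 of 8 measured, summed to 2161, 3438 and 4042 and to 1819, 7698 and 5781 in the same order. Endothelial markers summed to 8852 to 13125 and cholangiocyte markers to 868 to 1854 over the 6 arrays. In whole liver, fewer cells of a type and less RNA per cell cannot be told apart.

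On the fast-food diet alone the list showed a small and mixed response on the probe sets used. Compared with chow, 2 of the 37 genes were higher and 2 lower by 2-fold or more at 2 months, where 1.98% and 1.55% of all measured genes passed these limits. At 5 months the counts were 3 higher and 1 lower, against backgrounds of 2.72% and 1.83%. Gstm3 was higher and Osgin1 lower by this limit at both times, as were 0.751% and 0.286% of all genes. The median log2 difference of the 37 was 0.18 at 2 months and 0.03 at 5 months, beside 0.00 for all genes.

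With canertinib added to the diet most of the list was lower, 33 of 37 genes at 2 months and 30 at 5 months, where 6513 and 6511 of all 13989 genes were lower. The genes concerned included alpha-class glutathione transferases, the catalytic subunit of glutamate-cysteine ligase, epoxide hydrolase and UDP-glucose dehydrogenase. At each time 11 of the 37 genes were at least 2-fold lower than with fast food alone, where 3.26% of measured genes were so at 2 months and 2.73% at 5 months, and none was at least 2-fold higher, against 3.55% and 2.19%. The median log2 difference was -0.77 at 2 months and -0.67 at 5 months. The 8 genes at least 2-fold lower at both times, a limit that 0.865% of all genes passed, were Gsta2, Gsta4, Gstm3, Gstt1, Gstt2, Gclc, Ephx1 and Ugdh. Gstm1, Gstm4 and Gstm6 passed the limit at 2 months only, and Gstt3, Mgst3 and Gpx4 at 5 months only; that these differ between the studies was not tested.

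Against chow, the livers with both diet and drug had 1 gene higher and 10 lower by 2-fold or more at 2 months, beside backgrounds of 3.8% and 2.74%. At 5 months none was higher and 11 were lower, beside 2.82% and 2.72%. Of these, 9 were lower by this limit at both times, as were 0.793% of all genes, and none was higher at both times, against 1.27%. The median log2 differences were -0.37 and -0.49. This comparison shares its arrays with the preceding ones and is not independent of them. Between the chow arrays of the studies, which differ in age as well as in study, 1 gene of the list (Osgin1) was at least 2-fold higher at 5 months, against 1.28% of all genes, and none was lower, against 1.32%.

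**Figure D1:**
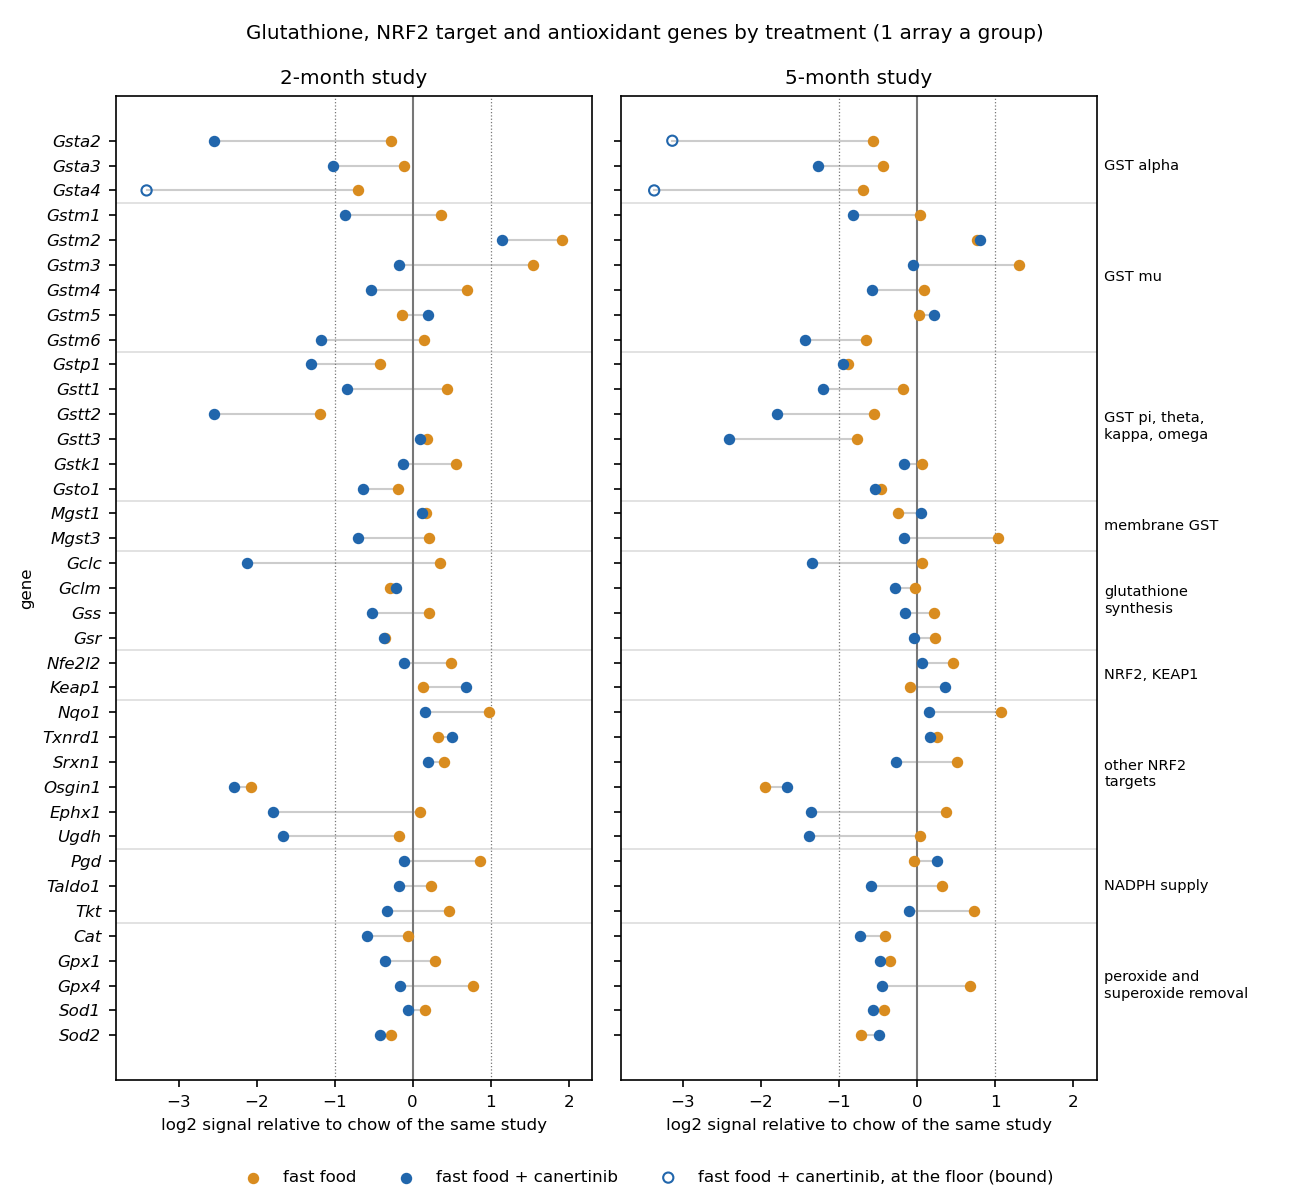
Log2 signal of each of the 37 genes relative to the chow array of the same study, for fast food (orange) and fast food with canertinib (blue), with the 2-month study on the left and the 5-month study on the right; each point is 1 array, dotted lines mark a 2-fold difference and open circles are bounds because the drug array lay at the floor. The blue points lie left of the orange ones for 33 genes at 2 months and 30 at 5 months.

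A test across the studies was possible only by taking them as repeats of each treatment, although the route, duration and age differed. Its p-values rest on the spread between the studies, moderated by a variance trend over all genes (2 residual and 3.49 prior degrees of freedom). In that limma fit, with a term for study and Benjamini-Hochberg adjustment over 13989 genes, 5 of the 37 genes fell with the drug relative to fast food: Gsta2, Gsta4, Gstm3, Ephx1 and Ugdh. Of all genes 0.307% were called lower and 0.407% higher. Relative to chow, where 0.207% of genes were called lower and 0.558% higher, 7 of the 37 fell: Gsta2, Gsta3, Gsta4, Gstt2, Osgin1, Ephx1 and Ugdh. None was called with diet alone, for which 0.0286% of genes were called higher and 0 lower in all; the lowest adjusted p in the list was 0.0877 for Gstm3, and 11 of the 37 had an unadjusted p under 0.05 (7 higher, 4 lower), as did 9.87% of all genes. Without a variance trend, or with all probe sets of a gene averaged, the drug calls in the list dropped to 2 and 1, and those against chow to 2 under each. The calls of Gsta4 held in all 10 alternative settings it entered in both fits, and that of Gsta2 against chow in all 9; each other call was lost in 1 to 4 settings.

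The alpha-class transferases, hepatocyte enzymes that also reduce lipid peroxides and conjugate their aldehyde products, had median drug differences of -2.28 and -2.57 on the log2 scale. Gsta4, whose enzyme favours 4-hydroxynonenal and related aldehydes of lipid peroxidation, had signals of 2352 with chow, 1453 with fast food and 73.2 with canertinib at 2 months, and 2288, 1417 and 49.3 at 5 months. Both drug arrays were below the floor while the other 4 were well above it. Relative to fast food Gsta4 was at least 6.56-fold lower in the 2-month study and at least 6.4-fold in the 5-month study. The fitted log2 difference over both studies, itself limited by the floor, was -2.70 ± 0.17 (SE) (limma, adjusted p = 0.0124, lower in 2 of 2 studies), and it was below chow under the same fit with an adjusted p of 0.00674. Both drug arrays entered the fit at the floor value, so the SE and p-values of Gsta4 also depend on the floor. Fast food alone was at -0.70 and -0.69 from chow on the log2 scale. Gsta2, a transferase with broad peroxidase activity, had signals of 1509.8 with chow, 1250.2 with fast food and 258 with canertinib at 2 months, and 1948, 1313 and 162 at 5 months. Its 5-month drug signal also lay below the floor, and the drug arrays did not overlap the rest. Gsta2 was 4.85-fold lower than with fast food in the 2-month study and at least 5.93-fold in the 5-month study (limma log2 -2.42 ± 0.22 (SE), adjusted p = 0.023). Its 5-month drug array likewise entered the fit at the floor value. Gsta3, a related hepatocyte enzyme, had signals of 8221 with chow, 7633 with fast food and 4053 with canertinib at 2 months, and 9515, 7004 and 3930.1 at 5 months. Its drug signals were again the lowest of each study, at log2 differences of -0.91 and -0.83 from fast food and -1.02 and -1.28 from chow; the fall against chow passed the test (limma, adjusted p = 0.0452) and that against fast food did not (adjusted p = 0.0791).

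The mu-class genes lie together on chromosome 3, in the order Gstm5, Gstm7, Gstm6, Gstm3, Gstm2, Gstm1 and Gstm4, and differed in their patterns. Gstm3 had signals of 5492 with chow, 15949 with fast food and 4858 with canertinib at 2 months, and 5774, 14279 and 5594 at 5 months. The fast-food array was the highest of each study. Fast food was 2.9-fold higher than chow in the 2-month study and 2.47-fold in the 5-month study, and the drug arrays were at -0.18 and -0.05 from chow on the log2 scale. The drug difference passed the test (limma log2 -1.53 ± 0.15 (SE), adjusted p = 0.027). The diet difference was of similar size (limma log2 1.42 ± 0.15 (SE)) but did not pass after adjustment within its own comparison (adjusted p = 0.0877). Another Gstm3 probe set gave drug differences of -2.14 and -2.72, which placed the drug arrays at -0.79 and -1.27 from chow. Gstm2, its neighbour, had signals of 1295 with chow, 4892 with fast food and 2871 with canertinib at 2 months, and 1675, 2864 and 2936 at 5 months. It too was higher with fast food, by log2 1.92 and 0.77, but with the drug it stayed above chow by 1.15 and 0.81, with adjusted p values of 0.237 and 0.191 in the limma fit. Gstm1, a transferase with broad substrates, had 38762 with chow, 49746 with fast food and 21354 with canertinib at 2 months, and 35751, 36670.1 and 20180.4 at 5 months. Its drug arrays were the lowest of each study, with drug differences of -1.22 and -0.86 (limma, adjusted p = 0.156), and fast food was 0.36 and 0.04 above chow. Its 4 probe sets gave drug differences between -1.59 and -0.82 at 2 months and between -1.68 and -0.86 at 5 months. Their diet differences lay between 0.03 and 0.65 at 2 months and between 0.04 and 0.44 at 5 months. Gstm4 had 2276 with chow, 3686 with fast food and 1578 with canertinib at 2 months, and 2551, 2714 and 1703 at 5 months, and Gstm6 had 1968 with chow, 2178 with fast food and 872 with canertinib at 2 months, and 2138, 1357 and 792 at 5 months. Both were also lowest on the drug arrays, with differences of -1.22 and -0.67 for Gstm4 and -1.32 and -0.78 for Gstm6. Gstm5, at the far end of the row from Gstm4, differed by at most 0.33 in any comparison and was highest on the drug array in each study. The mu genes are close copies of each other, so probe sets may read more than 1 of them.

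The theta-class genes, whose enzymes act on small halogenated and sulfur compounds, stand on chromosome 10 in the order Gstt3, Gstt1, Gstt4 and Gstt2. Gstt2 had signals of 2130.1 with chow, 939 with fast food and 366 with canertinib at 2 months, and 2274, 1552 and 657 at 5 months. It was lower with fast food than with chow and lower again with the drug in each study, with drug differences of -1.36 and -1.24, and the total distance from chow, -2.54 and -1.79, passed the test (limma, adjusted p = 0.0291). Gstt1 had 6044 with chow, 8199 with fast food and 3384 with canertinib at 2 months, and 7739.7, 6834 and 3346 at 5 months. Its drug arrays were the lowest, at -1.28 and -1.03 from fast food (adjusted p = 0.0752). Gstt3 had 1523 with chow, 1725 with fast food and 1623 with canertinib at 2 months, and 1725, 1011 and 325 at 5 months, so that the difference was -0.09 at 2 months and -1.64 at 5 months. The 5-month drug array stood far below the other 5, and the difference between the studies could not be tested.

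Gstp1, the pi-class enzyme and in male mouse liver one of the most abundant transferases, had signals of 59332 with chow, 44530.2 with fast food and 24147 with canertinib at 2 months, and 64372, 34999.9 and 33239.5 at 5 months. Fast food was at -0.41 and -0.88 from chow on the log2 scale, and the drug at -0.88 and -0.07 from fast food. It was highest with chow in each study; the near-identical copy Gstp2 may share its probes. Gstk1, a mitochondrial and peroxisomal transferase, and Gsto1, an omega-class enzyme with thiol transferase activity, were between -0.68 and -0.08 from fast food with the drug. The membrane-bound transferases act on lipid-soluble compounds and peroxides. Mgst1, with signals of 50135 to 64419, differed from fast food by -0.04 and 0.30 with the drug, although another probe set gave -0.84 at 2 months and the sign of its fitted difference turned under quantile and loess normalization. Mgst3 had 1186 with chow, 1373 with fast food and 728 with canertinib at 2 months, and 844, 1738 and 749.6 at 5 months: it was highest with fast food in each study, and the drug differences were -0.91 and -1.21 (adjusted p = 0.147). Across the 17 transferases, 16 at 2 months and 14 at 5 months were lower with the drug, 8 and 7 at least 2-fold, with medians of -0.91 and -0.83, beside 3.26% and 2.73% of all genes by that limit. Among the other 20 genes 3 and 4 were at least 2-fold lower, with medians of -0.57 and -0.34. Whether the transferases differ from the other 20 was not tested.

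Glutathione is made in consecutive steps, and the enzyme of the rate-limiting one is built of a catalytic subunit, Gclc, and a modifier subunit, Gclm. Gclc had 4779 with chow, 6124 with fast food and 1100.5 with canertinib at 2 months, and 6392, 6677 and 2523 at 5 months. With the drug it was 5.56-fold lower than with fast food in the 2-month study and 2.65-fold in the 5-month study. Fast food was 0.36 and 0.06 above chow, and 0.61 and 0.46 above it on another probe set. Both probe sets gave this order, with drug differences of -2.92 and -2.48 in the 2-month study and -2.03 and -1.40 in the 5-month study. The limma fit gave -1.94 ± 0.26 (SE) with an adjusted p of 0.057, above the threshold; the studies differ by more than 1 log2 unit in size. Gclm had 4766 with chow, 3889.8 with fast food and 4123 with canertinib at 2 months, and 5272, 5155 and 4316 at 5 months. Its drug differences were 0.08 and -0.26, and another probe set gave -0.25 and -0.71. Gss, which completes the synthesis, and Gsr, which regenerates reduced glutathione with NADPH, were between -0.73 and -0.02 from fast food; their other probe sets reached 0.12 for Gss at 5 months and 0.26 for Gsr at 2 months.

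Nfe2l2, which encodes NRF2, had signals of 2744 with chow, 3876 with fast food and 2534 with canertinib at 2 months, and 3165, 4363 and 3294 at 5 months. It was highest with fast food in each study, by 0.50 and 0.46 over chow, and the drug arrays were at -0.12 and 0.06 from chow. The drug difference of -0.61 and -0.41 had an adjusted p of 0.17 in the limma fit. Keap1 had 1643 with chow, 1807 with fast food and 2632 with canertinib at 2 months, and 1808, 1699 and 2325 at 5 months. Unlike most of the list it was highest on the drug array in each study, at 0.54 and 0.45 above fast food (adjusted p = 0.21). Another Keap1 probe set gave -0.28 at 2 months and 0.47 at 5 months. NRF2 is regulated mainly at the protein level, which was not measured.

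**Figure D2:**
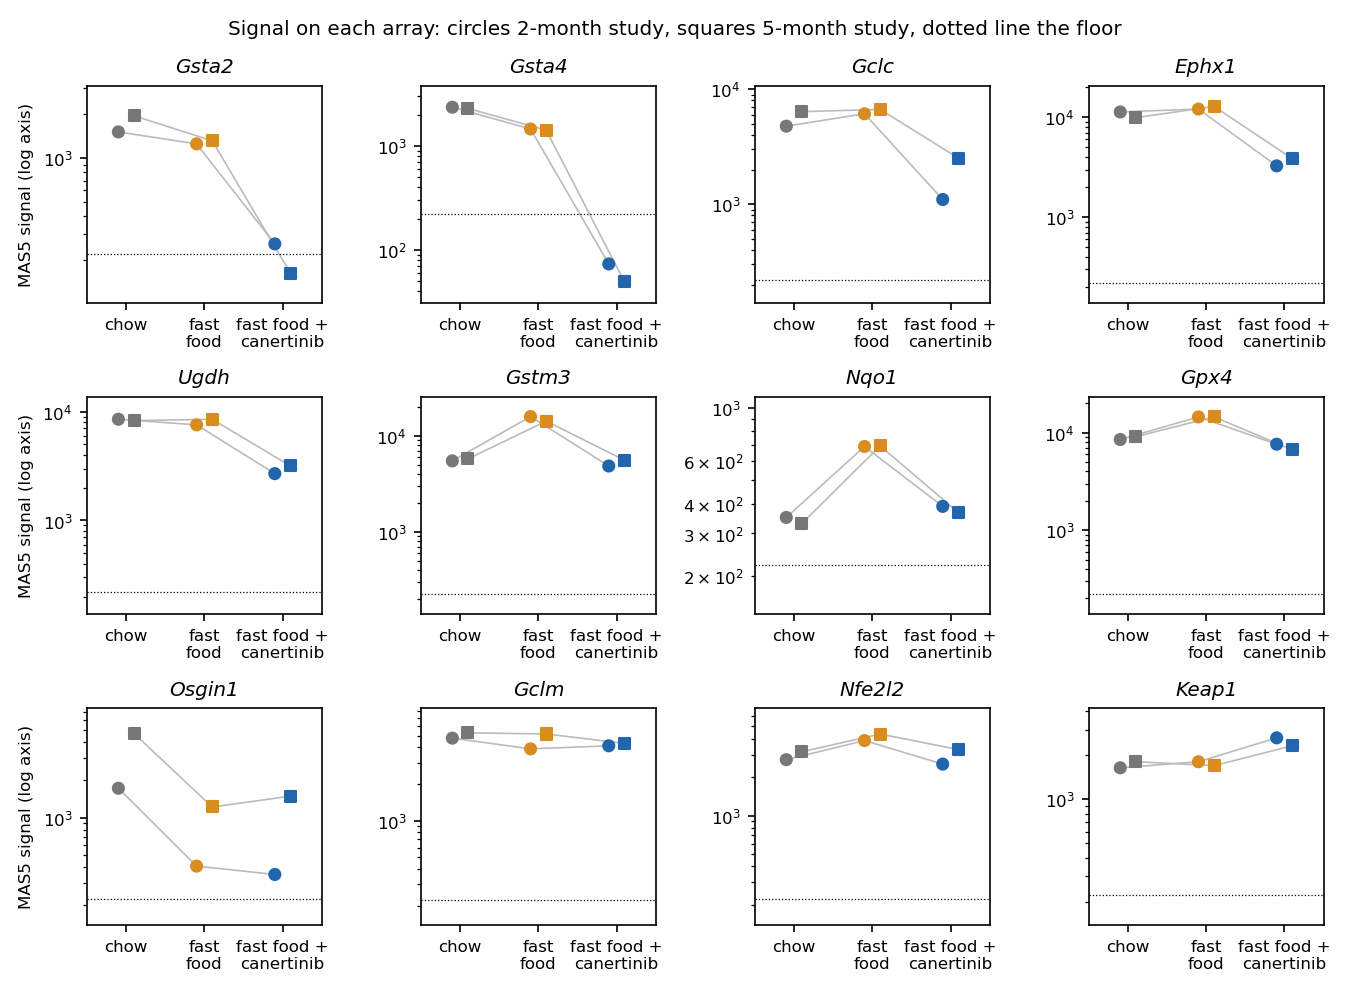
MAS5 signal on a log axis for 12 genes on each of the 6 arrays, with circles for the 2-month and squares for the 5-month study, colours for chow (grey), fast food (orange) and fast food with canertinib (blue), and a dotted line at the floor of 221.4. Gsta2, Gsta4, Gclc, Ephx1 and Ugdh are lowest on the drug arrays, Gstm3, Nqo1 and Gpx4 are highest with fast food, Osgin1 is highest with chow, and Gclm stays between 3889.8 and 5272.

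The other NRF2 target enzymes differed among themselves. Ephx1, the microsomal epoxide hydrolase, had signals of 11306 with chow, 12083 with fast food and 3265 with canertinib at 2 months, and 9909, 12851 and 3849 at 5 months. With the drug it was 3.7-fold lower than with fast food in the 2-month study and 3.34-fold in the 5-month study (limma log2 -1.81 ± 0.16 (SE), adjusted p = 0.022) and also fell against chow (adjusted p = 0.0263). Ugdh, which makes the UDP-glucuronic acid used in glucuronidation, had 8514 with chow, 7558 with fast food and 2694 with canertinib at 2 months, and 8263, 8499 and 3169 at 5 months. Its 4 arrays without the drug spanned 7558 to 8514, and the drug arrays were 2.8-fold lower than fast food in the 2-month study and 2.68-fold in the 5-month study (limma log2 -1.46 ± 0.14 (SE), adjusted p = 0.023). The diet differences of both genes were small, at 0.10 and 0.38 for Ephx1 and -0.17 and 0.04 for Ugdh.

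Nqo1, the quinone reductase often read as a marker of NRF2 activity, had signals of 349.9 with chow, 692 with fast food and 389 with canertinib at 2 months, and 330.4, 695 and 367 at 5 months. It was higher with fast food by 0.98 and 1.07 and the drug differences were -0.83 and -0.92, so that the drug arrays lay 0.15 above chow in each study; the adjusted p values were 0.252 for diet and 0.183 for the drug. Txnrd1, cytosolic thioredoxin reductase, had signals of 2553 with chow, 3189.9 with fast food and 3609 with canertinib at 2 months, and 2839, 3389.7 and 3182 at 5 months, and was 0.18 and -0.09 from fast food with the drug. Srxn1, sulfiredoxin, differed by -0.21 and -0.78, and its 4 probe sets ranged from -1.57 to -0.20 at 2 months and from -1.54 to 0.01 at 5 months. With fast food it was 0.41 and 0.52 above chow, and the 4 probe sets ranged from 0.16 to 1.57 and from 0.23 to 1.32. Osgin1, an oxidative-stress-induced growth inhibitor, differed with diet and little with the drug. Its signals were 1719 with chow, 409 with fast food and 351 with canertinib at 2 months, and 4707, 1217 and 1485 at 5 months. Fast food was 4.2-fold lower than chow in the 2-month study and 3.87-fold in the 5-month study, and the drug differed from fast food by -0.22 and 0.29. The fall of the drug arrays against chow passed the test (limma log2 -1.98 ± 0.21 (SE), unadjusted p = 0.000127, adjusted p = 0.0289). That with diet alone was no smaller (limma log2 -2.01 ± 0.21 (SE), unadjusted p = 0.000117) but did not pass (adjusted p = 0.0877). The p-values were adjusted within each comparison. The chow arrays themselves differed by 1.45.

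NADPH for glutathione reductase comes largely from the dehydrogenases of the pentose phosphate pathway. Of these the list holds Pgd and G6pdx, which was not analysed. Tkt and Taldo1 catalyse other steps of the pathway. Tkt, transketolase, had signals of 4389 with chow, 6058 with fast food and 3492 with canertinib at 2 months, and 4221, 6989 and 3943 at 5 months; it was highest with fast food, and the drug differences were -0.79 and -0.83 (limma, adjusted p = 0.0791). Its 3 probe sets ranged from -0.79 to 0.18 at 2 months. Taldo1, transaldolase, differed by -0.40 and -0.91. Pgd, a dehydrogenase of the pathway, was lower with the drug at 2 months (-0.97) and higher at 5 months (0.30), but its other 3 probe sets were lower at both times. With fast food it was 0.86 and -0.04 from chow, while the other 3 were higher at both times, by up to 1.67 and 1.54.

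Among the enzymes that remove peroxide and superoxide, Gpx4, which reduces lipid hydroperoxides within membranes, varied most. Its signals were 8500 with chow, 14480.1 with fast food and 7609 with canertinib at 2 months, and 9089, 14486 and 6661 at 5 months. Fast food was above chow by 0.77 and 0.67 and the drug differences were -0.93 and -1.12, with a limma adjusted p of 0.0671 for the drug; another probe set gave drug differences of -0.08 at 2 months and -1.25 at 5 months and turned the diet difference at 2 months, at -0.66 and then 1.24. Cat, catalase, had signals of 32133 with chow, 30914 with fast food and 21439 with canertinib at 2 months, and 32648, 24527 and 19714 at 5 months, and was lowest with the drug in each study. The drug differences were -0.53 and -0.32 and the diet differences -0.06 and -0.41. Another Cat probe set gave drug differences of -0.17 and -0.12 and diet differences of -0.76 and -0.07. Gpx1, the main cytosolic glutathione peroxidase, and Sod1, the cytosolic superoxide dismutase, were also lowest with the drug in each study, at log2 differences from fast food of -0.64 and -0.13 for Gpx1 and -0.22 and -0.15 for Sod1, whose 5 probe sets ranged from -0.22 to 0.50 at 2 months and from -0.32 to 0.15 at 5 months. Sod2, the mitochondrial dismutase, differed by -0.14 and 0.23. None of these 5 genes passed the test in any of the 3 fits.

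The drug differences of the studies, which share no array, mostly had the same sign in the list. The sign was the same at both times for 30 of 37 genes (81.1%), 28 of them lower, against 52.9% of all measured genes; genes at the floor have no sign and count as different. Across the 37 genes Pearson's r between the 2-month and 5-month drug differences was 0.782 and Spearman's rho 0.691, against 0.432 and 0.305 across all 13989. The diet differences had the same sign for 26 genes (70.3%, against 50.2%), with r 0.772 and rho 0.701, against 0.317 and 0.221. With the drug against chow 33 genes had the same sign (89.2%, against 56.1%), with r 0.841 and rho 0.811, against 0.523 and 0.385. These are descriptions across genes, which are not independent replicates. An order of arrays was counted after the values were seen. Of the 35 listed genes that exceeded the floor on every array, the drug array was the lowest of its study at both times for 22 (62.9%), as for 19.8% of the 9874 such genes in all. The fast-food array was the highest at both times for 14 (40%), against 13.7%. Only Gstm5 and Keap1 (5.71%, against 17.7%) were highest on the drug array at both times.

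**Figure D3:**
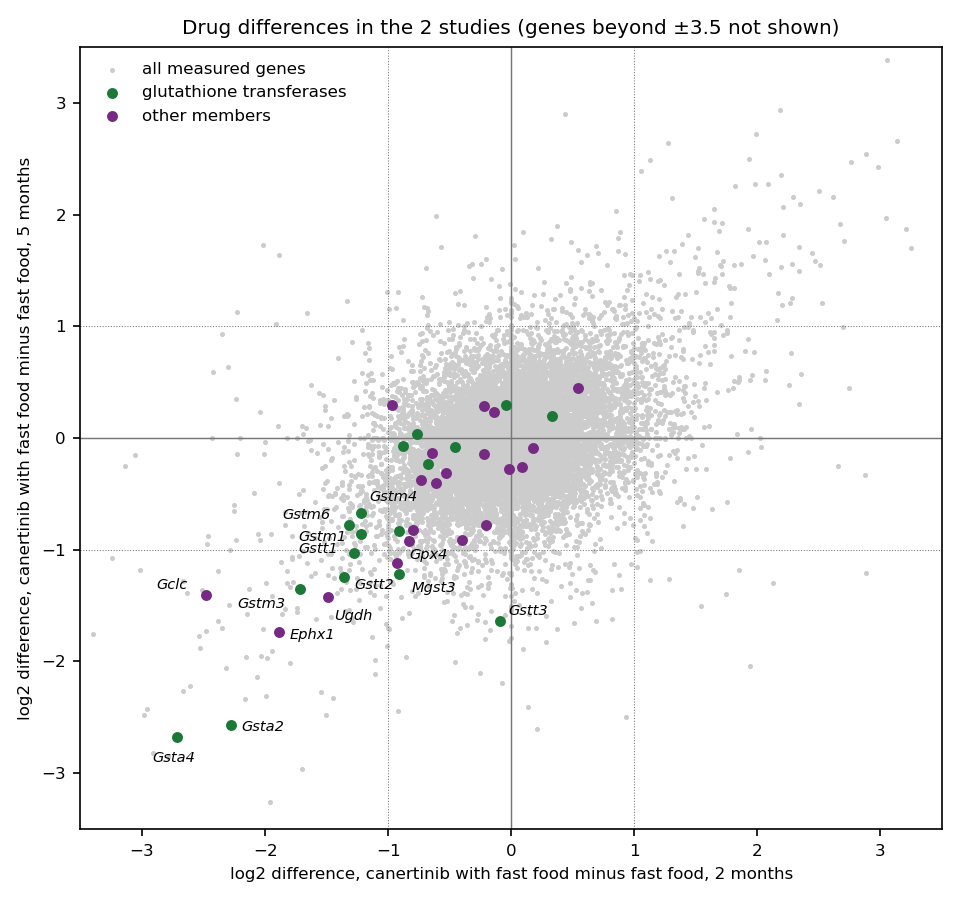
Log2 difference of fast food with canertinib minus fast food in the 2-month study (horizontal) and the 5-month study (vertical) for all 13989 measured genes (grey, of which 28 lie beyond the axes), the 17 glutathione transferases (green) and the 20 other genes of the list (purple); dotted lines mark 2-fold and genes at least 2-fold lower at either time are named. The named genes lie in the lower left, with Gsta4, Gsta2, Gclc and Ephx1 farthest from 0, and Gstt3 is set apart by a 2-month difference of -0.09.

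Among measured genes with a promoter window, the core of the response element was present for 1 of 11 that were at least 2-fold lower with the drug at either time (9.09%, Ugdh). It was present for 9 of the 22 other measured genes (40.9%), among them Gsta3, Gclm and Txnrd1, and for 14.0% of all genes with a window. Gsta4, Gstt2 and Gclc, also at least 2-fold lower with the drug, had no window and are not counted. The split was made by the drug values themselves, and the shares were not tested against each other. Absence from a window says only that these letters are not in it.

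Of 121 other genes of the pathway, 99 were measured, and they were divided. With the drug 6 were at least 2-fold lower at both times (6.06%, against 0.865% of all genes) and 2 at least 2-fold higher (2.02%, against 0.951%). The limma test was passed by 7 of the 99, where 0.307% of all genes were called lower and 0.407% higher. Me1, malic enzyme, an NADPH source that also serves fat synthesis, had signals of 12184 with chow, 18982 with fast food and 2989 with canertinib at 2 months, and 11942, 14112 and 2931 at 5 months, with drug differences of -2.67 and -2.27 (limma, adjusted p = 0.0127). Aldh3a2, fatty aldehyde dehydrogenase, was higher with fast food by 1.24 and 1.30, and its drug differences were -2.61 and -2.22 (adjusted p = 0.0124). Entpd5 differed by -1.58 and -1.62 (adjusted p = 0.0192), a fall that passed the test. Blvrb, biliverdin reductase B, and the carboxylesterase Ces1g, named after their values were seen because they passed it too, had differences of -1.23 and -0.93 for Blvrb (adjusted p = 0.0483) and -0.93 and -0.92 for Ces1g (adjusted p = 0.0499). Abcc3, which exports conjugates from the hepatocyte, differed by -2.51 and -1.36 (adjusted p = 0.0791). Txnip, the inhibitor of thioredoxin, fell by 1.38 and 1.20 on the log2 scale (adjusted p = 0.0321). Fasn, fatty acid synthase, a large user of NADPH, was with fast food 2.82-fold higher than with chow in the 2-month study and 2.04-fold in the 5-month study, and its drug differences were -1.78 and -1.07 (adjusted p = 0.0615).

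Genes of the wider list also stood on the other side. H6pd, the glucose-6-phosphate dehydrogenase of the endoplasmic reticulum, had signals of 4378 with chow, 3151 with fast food and 7272 with canertinib at 2 months, and 4769, 3429 and 9156 at 5 months and rose with the drug by 1.21 and 1.42 (limma, adjusted p = 0.0272). Txnrd3 was with the drug at least 3.5-fold higher than with fast food in the 2-month study and 2.53-fold in the 5-month study, although its 5-month chow signal of 587 was close to the drug signal of 639.9. With diet 4 of the 99 were at least 2-fold higher at both times (4.04%, against 0.751% of all genes), namely Aldh3a2, Fasn, Gpx3 (plasma glutathione peroxidase) and Cyba (a subunit of the NADPH oxidase), none was lower, and none passed the test. Hmox1, heme oxygenase 1, a target that answers to heme and to BACH1 as well as to NRF2, did not follow the list: it was 0.42 and 0.64 from chow with fast food and -0.16 and 0.33 from fast food with the drug. Slc7a11, the cystine importer, was above the floor on 2 arrays only and has no usable difference at 5 months. Txn1, thioredoxin, differed by -0.58 and -0.22 with the drug.

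**Figure D4:**
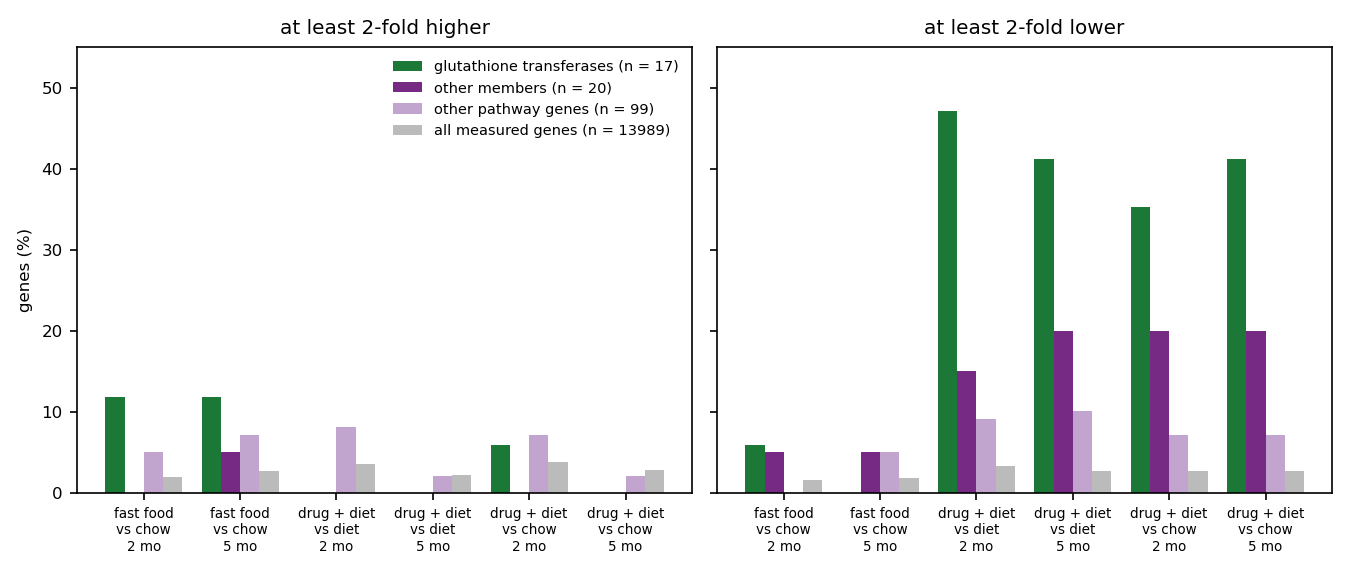
Percentage of genes at least 2-fold higher (left) and at least 2-fold lower (right) in each comparison of single arrays, for the 17 glutathione transferases, the 20 other genes of the list, the 99 other measured pathway genes and all 13989 measured genes; bars start at 0 and there is no error because each group is 1 array. In the 2 drug comparisons against fast food, 11 of 37 listed genes are lower by 2-fold or more in each study and none is higher.

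The lower signals on the drug arrays came with the higher actin 3′ to 5′ ratio, the higher neutrophil and hepatocyte markers and the mostly lower stellate cell markers given above. Their part in the result was not tested.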

How the data were processed

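Liver RNA was measured on 6 Affymetrix Mouse Genome 430 2.0 arrays, 1 per group, each with RNA pooled from 3 to 4 livers, per the labels. The labels' protocols give 6 ug of total RNA as the input for biotinylated cRNA. The deposited intensity values are MAS5 signals, per the submitters' processing notes, with no version named in them. From the values, the authors scaled each array to a trimmed mean of 500, with 2% of probe sets removed at each end. Arrays have no read depth, and their number limits the precision. In the platform annotation 34958 of the 45101 probe sets carry a single symbol, 932 several and 9211 none.

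Each gene was represented by its one-symbol probe set with the highest mean signal. Values under a floor of 221.4 (the 50th percentile over all arrays) were set to it before the log2 transformation, and a gene was measured if above the floor on at least 1 array. Where 1 of 2 arrays lay at the floor the difference is a bound. Comparisons of single arrays carry no test; calls are at least 2-fold. A limma fit (version 3.58.1, R 4.3.3) with treatment and study, a variance trend and Benjamini-Hochberg adjustment at 0.05 used all 6 arrays, with 2 residual degrees of freedom, and was tested on simulated data. Promoter windows are from RefSeq (GRCm38.p6). Figures and motif searches used Python 3.11.15, pandas 2.3.3, NumPy 2.4.6 and matplotlib 3.10.9.

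The members and all gene lists were chosen with earlier results of these data known. Named in full were members at least 2-fold different at either time, with Nfe2l2 and Keap1; of the other pathway genes, those at least 2-fold different in the same direction at both times with diet or drug, and always Hmox1, Slc7a11, Txn1 and Me1. Alternatives were other scalings, floors, filters, probe set rules, fold limits and fits.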

Additional observations from a re-analysis of the deposited data

Results flagged for a closer look

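Pgd, a dehydrogenase of the pentose phosphate pathway, differed in direction between the studies. With canertinib it was -0.97 from fast food on the log2 scale at 2 months and 0.30 at 5 months. The difference between the studies was not tested, since each has 1 array a group. Of the 4 Pgd probe sets, the 3 not used were lower with the drug at both times, down to -1.01 at 5 months.

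Gstt3, a theta-class glutathione transferase, was 0.0918 from chow with diet and drug at 2 months and -2.41 at 5 months, and this difference was not tested either.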

How the results depend on the processing

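No call and no difference of 2-fold or more changed direction under any alternative, but smaller differences did: 56 of 2268 values of single genes between 2 arrays changed sign, 25 of them with probe sets averaged (Pgd with the drug at 5 months, -0.47). In the fits 16 uncalled values turned. With quantile normalization these were Mgst1 (drug -0.31, against chow -0.34) and Osgin1 (drug -0.0098), and with loess Mgst1 (-0.035 and -0.052) and Sod2 (drug -0.010). With probe sets averaged they were Mgst1 (diet 0.0034, drug -0.15, against chow -0.14), Sod1 (drug 0.0089) and Srxn1 (against chow 0.014). Without probe sets of shared suffixes (_s_at, _x_at, _a_at) they were Mgst1 (diet 0.045, drug -0.42, against chow -0.37) and Gss (drug 0.015, against chow 0.091). At 1.5-fold and 3-fold, genes higher with diet numbered 6 and 1 at 2 months and 6 and 0 at 5 months, genes lower with the drug 23 and 5, then 19 and 4. At 3-fold, 5 were lower than chow with the drug at 5 months and 0 higher in the chow pair. All measured genes were not counted at 1.5-fold and 3-fold, so these counts have no background share beside them. In the limma fits the main calls were 4 with diet, 100 with the drug and 107 against chow over all genes (members 0, 5 and 7). Without the variance trend they were 0, 26 and 43 (members 2 for the drug, 2 against chow), and with probe sets averaged 0, 7 and 25 (members 1 and 2). Without a floor they were 68, 267 and 282 (members 2 with diet, 10 with the drug), and among genes over the floor on every array 134, 384 and 402 (members 3 and 13). Median centring gave 24 with diet (1 member) and 161 with the drug. Diet calls were 1 without the study term, 1 after quantile normalization, 0 after cyclic loess and 0 with the floor at the 40th percentile, and both normalizations gave 10 members with the drug. The members' median against chow at 2 months was -0.51 after quantile normalization, -0.50 after loess and -0.47 without those suffixes, which also gave -0.66 and -0.54 for the drug at 2 and 5 months. That for the drug was -0.62 at 2 months with probe sets averaged and -0.41 at 5 months among genes over it on every array. The cause was not tested. Gsta3 against chow was also lost with the floor at the 40th percentile and without those suffixes, and Gstt2 and Osgin1 without the study term. The study term of the main fit already pairs the arrays of a study; the labels carry no replicate numbers for another pairing.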

Other observations

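Of 20 listed genes of glutathione breakdown, transport and precursor supply 18 were measured. With canertinib 12 at 2 months and 11 at 5 months were higher than with fast food, beside 6474 and 6343 of all 13989 genes, with median log2 differences of 0.27 and 0.28. By 2-fold, 2 were higher and 1 lower at 2 months, where 3.55% and 3.26% of all genes were. At 5 months 0 were higher and 1 lower, against 2.19% and 2.73%, and the lower gene was Abcc3 at both times. Against chow at 5 months 8 were higher and 9 lower. The genes named here were picked after their values were seen. Mat1a, which makes S-adenosylmethionine, had signals of 18845, 26310.1 and 54715 with chow, fast food and canertinib at 2 months and of 18929.8, 20867 and 36068 at 5 months. Cth, which releases cysteine from cystathionine, was at 0.96 and 0.72 from fast food with the drug, and at -0.46 and -1.32 from chow with fast food alone. Neither passed the limma test for the drug (adjusted p = 0.192 for Mat1a and 0.266 for Cth).

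Among 13 measured oxidant-source genes, 11 at 2 months and 10 at 5 months were higher with the drug than with fast food, with medians of 0.34 and 0.30, beside the same 6474 and 6343 of all genes. The lowest were Aox3, an aldehyde oxidase, at -2.47 and -0.95, and Duoxa2 at 5 months, at -1.36. The list holds phagocyte oxidase genes, and neutrophil markers summed to 3951 and 16270 with fast food and the drug at 2 months and to 3222 and 17258 at 5 months; their part in the counts was not tested.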
